A study of Mus musculus with 4 samples.

Results

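The 10 genes described here encode enzymes that hydroxylate and crosslink collagen: the lysyl oxidases Lox, Loxl1, Loxl2, Loxl3 and Loxl4, the lysyl hydroxylases Plod1, Plod2 and Plod3, and the prolyl 4-hydroxylase catalytic subunits P4ha1 and P4ha2. They were taken by symbol from the 32285 genes of the count matrices, a rule that uses no measured value, although the group itself was proposed with earlier results of these data known. In the endoplasmic reticulum, prolyl 4-hydroxylase modifies prolines of the nascent collagen chain, which stabilises the triple helix, and the lysyl hydroxylases modify lysines, some of which later carry sugars or take part in crosslinks. Both kinds of enzyme use iron, 2-oxoglutarate, oxygen and ascorbate. After secretion, the copper-dependent lysyl oxidases oxidise lysine and hydroxylysine side chains of collagen and elastin, from which the covalent crosslinks of the fibre form. Fibroblasts and adipose progenitor cells are among the main producers of fibrillar collagen in adipose tissue.

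The cells came from inguinal (iWAT) and epididymal (eWAT) white adipose tissue of chow-fed male C57BL/6J mice. DFAT cells are de-differentiated fat cells grown from floating adipocytes in ceiling culture, and SVF cells are cultured cells of the stromal vascular fraction, which holds the adipose progenitors. The ceiling flasks were at first filled with medium to exclude air, which the paper describes as anoxic, while SVF cells were seeded into dishes. This culture difference cannot be told apart from that between DFAT and SVF cells. The 4 conditions were iWAT_DFAT, eWAT_DFAT, iWAT_SVF and eWAT_SVF, each with 1 10x 3′ library of adherent, untreated, 7-AAD-sorted cells. The mouse age, the number of mice and any pooling are not given in the sources used here. With 1 library per condition no difference could be set against the spread between replicates, so no test was run, and every interval below covers counting error only.

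The libraries held 7629, 6464, 7424 and 6745 cells in the order named above, 28262 in all, with 183664704 to 199357348 unique molecular identifiers (UMIs) each and a median of 22111 to 27617 UMIs per cell. Markers of stromal progenitors were found in 98.7% of iWAT_DFAT, 86.3% of eWAT_DFAT, 95.04% of iWAT_SVF and 95.3% of eWAT_SVF cells. Their summed level was lower in eWAT_DFAT, at 1826 counts per 1000000 UMIs (CPM), than in the other libraries, at 5026 to 6066 CPM, and none of the 10 marker genes was at 0. Without Col1a1 and Col3a1, which are also substrates of these enzymes, the sums were 3373 CPM in iWAT_DFAT, 819 CPM in eWAT_DFAT, 1524 CPM in iWAT_SVF and 1670 CPM in eWAT_SVF. All 10 markers were lower in eWAT_DFAT than in iWAT_DFAT, Pdgfra for example at 95.2 against 246 CPM, while Pdgfra was at 84.5 and 82.5 CPM in iWAT_SVF and eWAT_SVF. The part of these markers in the depot differences of the enzymes was not tested. The endothelial markers summed to 44.0 to 128 CPM and the mesothelial markers to 5.97 to 131 CPM, both highest in eWAT_SVF. The adipocyte markers summed to 22.3 and 75.9 CPM in iWAT_DFAT and eWAT_DFAT and to 0.552 and 1.66 CPM in iWAT_SVF and eWAT_SVF, with Lep at 0 in all 4 libraries. The header of the iWAT_SVF matrix names an earlier Cell Ranger version than the other 3, and this difference cannot be told apart from that library. Introns were counted per the study's methods, but whether this held for that matrix was not tested. Long genes read higher in iWAT_DFAT: of 10 classes of genes by genomic span, the longest had a median log2 ratio of 0.33 and the shortest -0.06 against eWAT_DFAT, and 0.33 and -0.11 against iWAT_SVF. Between iWAT_SVF and eWAT_SVF the values were 0.15 and -0.01. A total of 97 barcodes were cells in 2 libraries.

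On GRCm38 with the GENCODE annotation, each enzyme is a separate gene and the families are scattered over the genome. Loxl1 lies at chr9:58287738-58313186 (- strand), Loxl2 at chr14:69609068-69695834 (+), Loxl3 at chr6:83034173-83052562 (+), Loxl4 at chr19:42593982-42612813 (-) and Lox on chromosome 18. Plod1 lies at chr4:147909753-147936767 (-), Plod2 at chr9:92542223-92608428 (+) and Plod3 at chr5:136987019-136996648 (+). P4ha1 lies at chr10:59323296-59373304 (+) and P4ha2 at chr11:54100095-54131665 (+). On the same strand, only microRNA genes overlap them (in Loxl2, Loxl3 and Plod3). Genes on the opposite strand overlap Lox, Loxl2, Loxl3, Plod2 and Plod3, and whether the counting used strand is not given in the sources used here.

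Lox was the most abundant lysyl oxidase transcript in each library, and it was lower in both DFAT cultures than in the SVF cultures. Its level was 777 CPM in iWAT_DFAT, 352 CPM in eWAT_DFAT, 1636 CPM in iWAT_SVF and 1365 CPM in eWAT_SVF. The difference between DFAT and SVF cells was 2.11-fold in iWAT (log2 ratio -1.07, 95% counting interval -1.08 to -1.07) and 3.87-fold in eWAT (log2 ratio -1.95, interval -1.97 to -1.94). In these sums over a whole culture, fewer cells of a type and less RNA per cell cannot be told apart. Within cells carrying stromal progenitor markers the order was the same, at 781, 374, 1664 and 1389 CPM. These cells were most of each library, some could carry markers of other types too, and their marker list includes Col1a1 and Col3a1. The order thus had little room to change, and the part of cell make-up in the Lox differences was not tested. Without cells holding a UMI of the proliferation genes Top2a or Mki67, the iWAT difference was -0.92 on the log2 scale, under 2-fold, and the eWAT difference was -2.04. With the mean of CPM per cell the iWAT difference was -0.93, also under 2-fold. Between depots, Lox was 2.21-fold higher in iWAT_DFAT than in eWAT_DFAT (log2 ratio 1.14) and 1.20-fold higher in iWAT_SVF than in eWAT_SVF (log2 ratio 0.26).

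**Figure D1:**
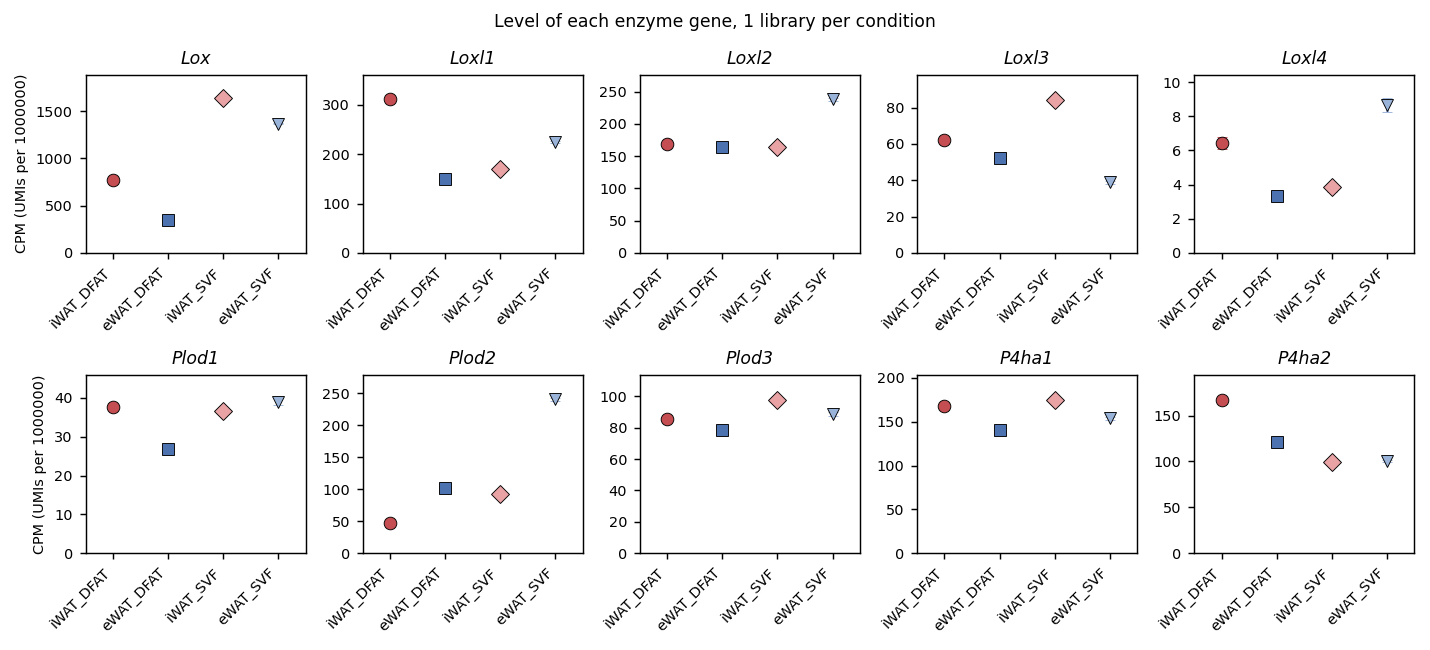
Level of each enzyme gene in CPM (linear axes from 0) in each of the 4 libraries, with 95% Poisson intervals that are mostly smaller than the symbols. Lox and Plod2 had the widest range, from 352 to 1636 CPM and from 46.8 to 241 CPM, while P4ha1 stayed between 141 and 175 CPM.

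The other lysyl oxidases did not share the order of Lox. Loxl1, an enzyme best known for elastic fibre assembly, was highest in iWAT_DFAT, at 312 CPM, against 151 CPM in eWAT_DFAT, 170 CPM in iWAT_SVF and 225 CPM in eWAT_SVF. Its iWAT to eWAT log2 ratio was 1.05 in DFAT cells (interval 1.03 to 1.07) and -0.41 in SVF cells (interval -0.43 to -0.39), so the 2 kinds of culture pointed in opposite directions. Loxl2, which crosslinks basement membrane collagen IV among other substrates, was at 168, 165 and 164 CPM in iWAT_DFAT, eWAT_DFAT and iWAT_SVF and stood apart only in eWAT_SVF, at 238 CPM. Loxl3 was highest in iWAT_SVF, at 84.1 CPM, and lowest in eWAT_SVF, at 38.8 CPM, with 61.9 CPM in iWAT_DFAT and 52.1 CPM in eWAT_DFAT. Loxl4 was rare. It had 6.42 CPM in iWAT_DFAT, 3.32 CPM in eWAT_DFAT, 3.84 CPM in iWAT_SVF and 8.66 CPM in eWAT_SVF, from 616 to 1710 UMIs per library.

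The make-up of the lysyl oxidase pool therefore differed between cultures. Lox supplied 58.6% of all lysyl oxidase UMIs in iWAT_DFAT and 48.7% in eWAT_DFAT, against 79.5% in iWAT_SVF and 72.8% in eWAT_SVF. Loxl1 supplied 23.5% and 20.8% in the DFAT libraries and 8.24% and 12.0% in the SVF libraries, and Loxl2 reached 22.8% in eWAT_DFAT. Where introns were counted, a UMI can come from within a gene as well as from its 3′ end, so these shares, which carry no length correction, can depend on gene span.

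Plod2, the lysyl hydroxylase that acts on collagen telopeptides and thereby sets which crosslinks can form, spanned the widest range of the 10 genes, 2.36 on the log2 scale. It was at 46.8 CPM in iWAT_DFAT, 103 CPM in eWAT_DFAT, 93.5 CPM in iWAT_SVF and 241 CPM in eWAT_SVF. The eWAT culture was thus higher in both cell kinds, and the SVF culture was higher in both depots. The iWAT to eWAT log2 ratio was -1.13 in DFAT cells (interval -1.17 to -1.10) and -1.36 in SVF cells (interval -1.39 to -1.34). The DFAT to SVF log2 ratio was -1.23 in eWAT (interval -1.25 to -1.21) and -0.9997 in iWAT (interval -1.04 to -0.96), the latter just under the 2-fold limit. Plod3, which carries glycosyltransferase activity besides lysyl hydroxylation, varied little, at 85.2, 78.3, 97.4 and 88.8 CPM in iWAT_DFAT, eWAT_DFAT, iWAT_SVF and eWAT_SVF. Plod1, a hydroxylase of helical lysines, was at 37.7, 26.7, 36.7 and 39.1 CPM, with eWAT_DFAT lowest. Plod2 made up 27.6% of the lysyl hydroxylase UMIs in iWAT_DFAT, 49.4% in eWAT_DFAT, 41.1% in iWAT_SVF and 65.3% in eWAT_SVF.

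P4ha1 and P4ha2 pair with the shared beta subunit P4hb in the active tetramer. P4ha1 varied as little as Plod3, and P4ha2 varied more. P4ha1 was at 168 CPM in iWAT_DFAT, 141 CPM in eWAT_DFAT, 175 CPM in iWAT_SVF and 154 CPM in eWAT_SVF, a range of 0.31 on the log2 scale. P4ha2 was higher in DFAT cells, at 167 CPM in iWAT_DFAT and 122 CPM in eWAT_DFAT, than in SVF cells, at 99.3 CPM in iWAT and 100 CPM in eWAT. The DFAT to SVF log2 ratio of P4ha2 was 0.75 in iWAT (interval 0.73 to 0.78) and 0.28 in eWAT (interval 0.25 to 0.30), and its SVF depot ratio of -0.02 had an interval that included 0. Its share of the P4ha1 and P4ha2 UMIs was 49.9%, 46.3%, 36.2% and 39.5% in iWAT_DFAT, eWAT_DFAT, iWAT_SVF and eWAT_SVF.

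Lox, Loxl1, Loxl3, Loxl4 and Plod2 made up the differences of 2-fold or more among the enzymes, and Plod1, Plod3, Loxl2 and the prolyl hydroxylases stayed under 2-fold in each comparison. Of 10033 genes at a mean of 5 CPM or more, 7.43% were at least 2-fold higher in iWAT_DFAT than in eWAT_DFAT and 3.59% were at least 2-fold lower. Of the enzymes, 2 were that much higher (Lox and Loxl1) and 1 was lower (Plod2). Loxl1 and Plod2 came near the limit, at a log2 ratio of 1.0017 for Loxl1 when centred on genes of like span. Plod2 was at -1.0152 without cells with a Top2a or Mki67 UMI. Between iWAT_SVF and eWAT_SVF the background was 2.74% higher and 3.4% lower, and 1 enzyme was higher (Loxl3) and 2 were lower (Loxl4 and Plod2). With median of ratios scaling the log2 ratio of Loxl3 was 1.0070, also near the limit. Between iWAT_DFAT and iWAT_SVF the background was 8.9% higher and 4.83% lower, with 0 enzymes higher and 1 lower (Lox). This count rested on values near the limit, being 2 with Plod2 added under 10 alternative settings and 0 without cells with a Top2a or Mki67 UMI or with the mean of CPM per cell. Between eWAT_DFAT and eWAT_SVF the background was 5.72% higher and 5.94% lower, with 0 enzymes higher and 3 lower (Lox, Loxl4 and Plod2). The median log2 ratio of the enzymes was 0.36, -0.05, -0.01 and -0.54 in these comparisons, and that of all genes was 0.09, 0.05, 0.08 and 0.07. The comparisons share libraries.

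**Figure D2:**
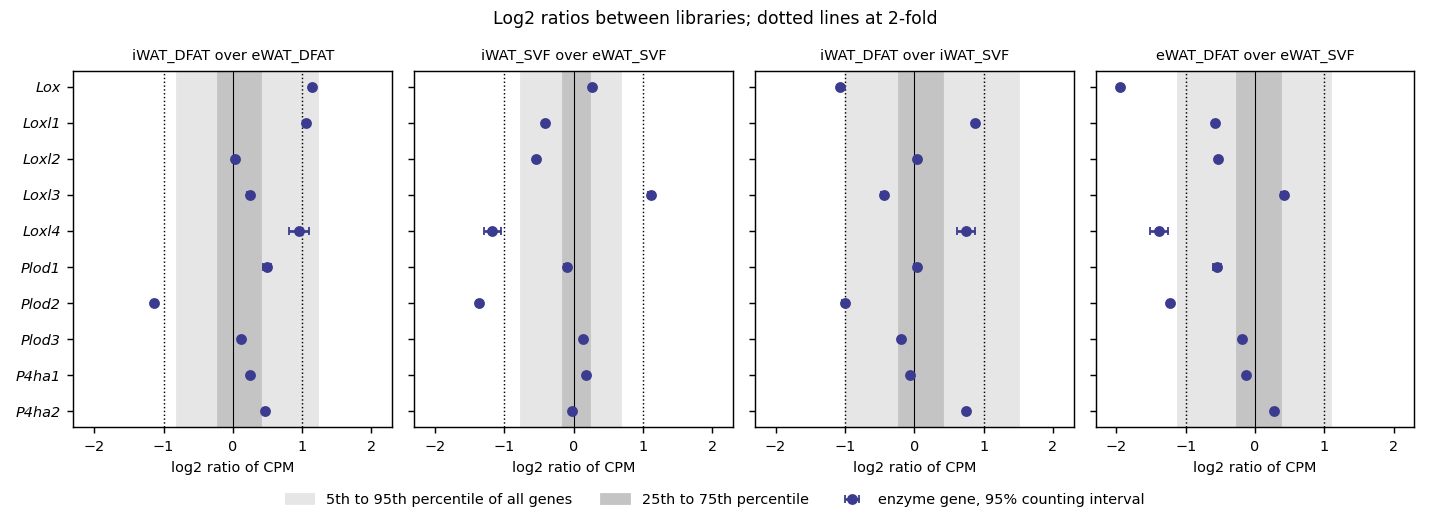
Log2 ratio of CPM of each enzyme gene in the 4 comparisons, with 95% counting intervals, over the 5th to 95th (light) and 25th to 75th (dark) percentile range of all genes tested, with dotted lines at 2-fold. Plod2 lay between -1.36 and -0.9997 in every panel, and Lox was lower in DFAT than in SVF cells in both depots.

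The fibrillar collagen substrates had their own order. Col1a1, Col1a2, Col3a1, Col5a1 and Col5a2 summed to 5793 CPM in iWAT_DFAT, 2554 CPM in eWAT_DFAT, 8348 CPM in iWAT_SVF and 7669 CPM in eWAT_SVF. Per 1000 of these UMIs there were 134, 138, 196 and 178 UMIs of Lox in iWAT_DFAT, eWAT_DFAT, iWAT_SVF and eWAT_SVF, a narrower range than its CPM. The other 9 enzymes were all highest in eWAT_DFAT by this measure, the library with the fewest collagen UMIs. A smaller divisor raises the value of any gene, and the share of all genes highest there by this measure was not counted. P4ha1 was at 29.0, 55.2, 21.0 and 20.1, Plod3 at 14.7, 30.7, 11.7 and 11.6, and Loxl2 at 29.0, 64.5, 19.6 and 31.1, so these genes varied more per collagen UMI than in CPM. For Plod2 the same measure was 8.07 in iWAT_DFAT and 11.2 in iWAT_SVF, against 40.2 in eWAT_DFAT and 31.4 in eWAT_SVF, so the depots separated and DFAT and SVF cells of 1 depot lay closer together.

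Within each library, cells were ranked by their summed CPM of those 5 collagens and divided into quintiles. In all 4 libraries 9 of the 10 enzymes, all but Loxl3, were higher in the top than in the bottom quintile, as were 28.2% of 10028 genes. Lox had the steepest difference, from 316 to 1202 CPM in iWAT_DFAT, from 96.6 to 718 CPM in eWAT_DFAT, from 953 to 2098 CPM in iWAT_SVF and from 552 to 2197 CPM in eWAT_SVF. Loxl2 went from 78.9 to 285 CPM in iWAT_DFAT and from 101 to 299 CPM in eWAT_DFAT, and P4ha2 from 77.0 to 273 CPM and from 65.1 to 204 CPM. Loxl1 was shallower, from 250 to 340 CPM in iWAT_DFAT. Loxl3 was flat in iWAT_SVF, at 86.4 and 84.9 CPM. A quintile is a rank within its library and does not mark the same collagen level in each, the median of the 5 collagens in the top quintile being 12562, 5256, 13182 and 12086 CPM in iWAT_DFAT, eWAT_DFAT, iWAT_SVF and eWAT_SVF. Without cells with a Top2a or Mki67 UMI, 10 enzymes were higher in the top quintile in all 4 libraries, as were 25.8% of genes. Of these, Plod1 in eWAT_DFAT (33.3 and 33.6 CPM) and Loxl3 in iWAT_SVF (78.9 and 81.6 CPM) barely differed. With cells ranked by the mean rank of the 5 collagens, or with each cell thinned to 5000 UMIs, 10 enzymes were also higher, against 30.01% of genes by mean rank. The share of all genes in thinned cells was not counted.

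**Figure D3:**
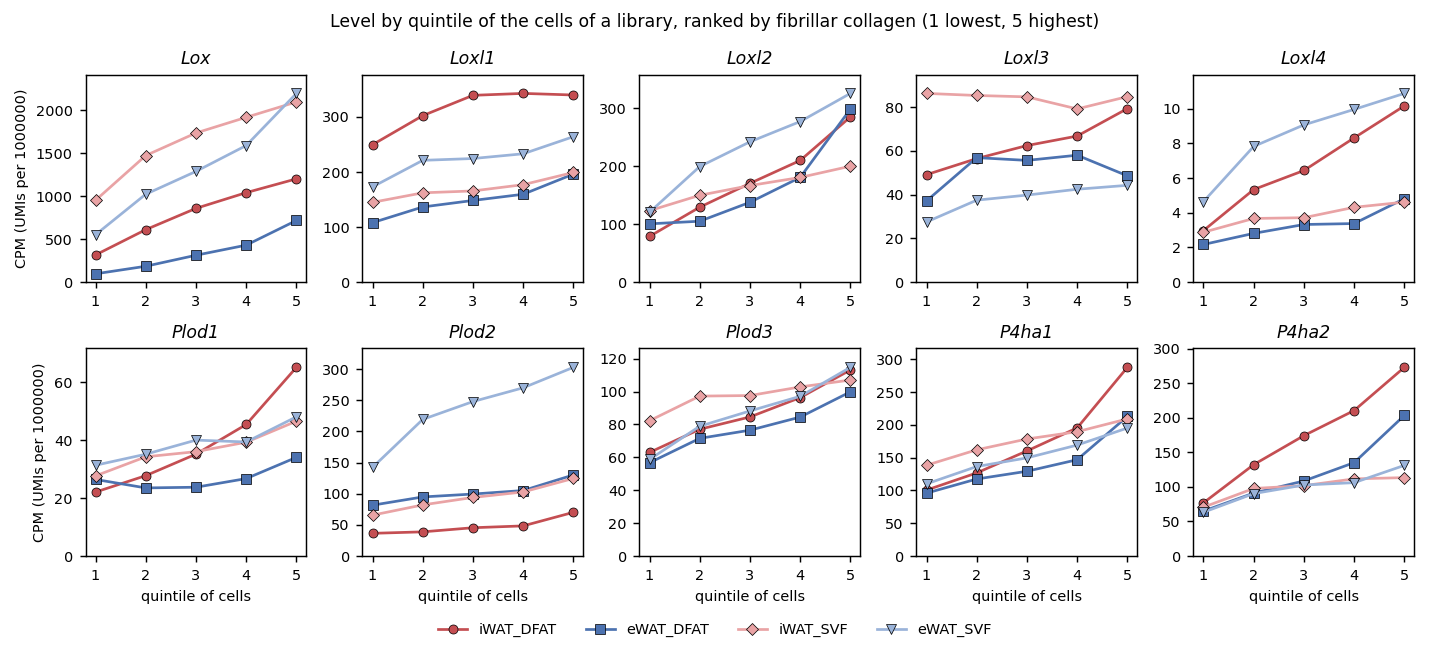
CPM of each enzyme gene (linear axes from 0) in 5 quintiles of the cells of each library, ranked from lowest (1) to highest (5) summed fibrillar collagen CPM. Each line is 1 library, and Lox, Loxl2, P4ha1 and P4ha2 were highest in the top quintile of each of the 4 libraries.

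Cells were also ranked by other gene groups. By cell cycle genes, 8 of 10 enzymes, all but Loxl1 and Loxl3, were lower in the top than in the bottom quintile in all 4 libraries, as were 27.9% of genes. Among the 8, the counting interval included 0 for Loxl4 in eWAT_DFAT and iWAT_SVF and for P4ha1 in iWAT_SVF. Lox was at 1023 CPM in the bottom and 667 CPM in the top quintile of iWAT_DFAT, and at 1654 and 1126 CPM in eWAT_SVF, but at 369 and 357 CPM in eWAT_DFAT. By contractile genes, such as Acta2 and Tagln, P4ha2 was the 1 enzyme higher in the top quintile in all 4 libraries (11.2% of genes) and Plod2 the 1 enzyme lower (34.7% of genes). For Plod2 the log2 difference was only -0.06 in iWAT_SVF and -0.02 in eWAT_SVF, with intervals that included 0. Ranked by the mean rank of the contractile genes instead of their summed CPM, Loxl3, Plod3 and P4ha1 joined P4ha2 (11.8% of genes). Lox differed in direction between libraries here. It went from 171 to 539 CPM across the contractile quintiles of eWAT_DFAT, but from 1027 to 697 CPM in iWAT_DFAT, from 1750 to 1547 CPM in iWAT_SVF and from 1421 to 1124 CPM in eWAT_SVF. Contractile genes themselves differed widely between libraries, with Acta2 at 394, 2856, 8763 and 9297 CPM, so a quintile does not mark the same level in each.

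The hypoxia and glycolysis genes were used as a further ranking because P4ha1, P4ha2 and Plod2 are among the known targets of hypoxia-inducible factors. P4ha2 was the 1 enzyme higher in the top quintile in all 4 libraries (19.8% of genes), from 137 to 230 CPM in iWAT_DFAT, 129 to 143 CPM in eWAT_DFAT, 87.5 to 125 CPM in iWAT_SVF and 68.3 to 142 CPM in eWAT_SVF. Ranked by the mean rank of the genes, 3 enzymes were higher (Loxl4, P4ha1 and P4ha2; 13.3% of genes). By summed CPM, P4ha1 went from 144 to 211 CPM in iWAT_DFAT and from 147 to 159 CPM in eWAT_DFAT, a log2 difference of 0.11 there against 0.15 for P4ha2. It was at 169 and 172 CPM in iWAT_SVF and slightly lower in the top quintile of eWAT_SVF, at 156 and 151 CPM. Plod2 was higher in the top quintile of both DFAT libraries, at 65.0 against 43.6 CPM in iWAT_DFAT and 110 against 104 CPM in eWAT_DFAT. It was lower in that of both SVF libraries, at 89.2 against 115 CPM in iWAT_SVF and 216 against 265 CPM in eWAT_SVF. From bottom to top quintile, Lox had a log2 difference of 0.08 in iWAT_DFAT, -0.50 in eWAT_DFAT, -0.34 in iWAT_SVF and -0.14 in eWAT_SVF. That of Loxl2 was 0.31, -0.23, -0.23 and -0.08 in the same order. The RefSeq promoters of both prolyl hydroxylase subunits (250 bases before to 50 after the start, GRCm38.p6, + strand, 5′ to 3′) are shown because both genes are known hypoxia targets, P4ha2 being higher in the top quintile of each library under both scores and P4ha1 under 1 of them. Capitals mark ACGTG, a form of the core of the hypoxia response element, on either strand. Other forms, such as GCGTG, were neither marked nor counted.
P4ha1, chr10:59323046-59323345: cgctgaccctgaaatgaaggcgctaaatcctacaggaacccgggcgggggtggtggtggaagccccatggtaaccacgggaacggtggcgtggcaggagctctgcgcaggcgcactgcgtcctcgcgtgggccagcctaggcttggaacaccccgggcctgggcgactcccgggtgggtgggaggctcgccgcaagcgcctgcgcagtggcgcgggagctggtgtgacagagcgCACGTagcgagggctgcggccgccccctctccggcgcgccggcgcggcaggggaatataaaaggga
P4ha2, chr11:54100674-54100973: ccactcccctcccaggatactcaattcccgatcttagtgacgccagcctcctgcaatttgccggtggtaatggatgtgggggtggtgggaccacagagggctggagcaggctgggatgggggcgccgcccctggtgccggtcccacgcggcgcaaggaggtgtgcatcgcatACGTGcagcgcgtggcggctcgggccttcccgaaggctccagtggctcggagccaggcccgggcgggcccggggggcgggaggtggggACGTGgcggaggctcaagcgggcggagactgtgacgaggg
P4ha1 held the motif once, 16 bases before the start, and P4ha2 held it at 2 places. Of these 2 places, 1 lies before and 1 after the RefSeq start of P4ha2. The P4ha2 window lies wholly inside the GENCODE gene given above, which begins at chr11:54100095. Its RefSeq start is thus downstream of that gene start, and the sequence before the GENCODE start is not shown. RefSeq promoters were at hand for 5 of the 10 genes, and those of Plod3, P4ha1 and P4ha2 held the motif while those of Plod1 and Loxl4 did not. It occurred in 19.6% of 32851 promoters of this length, and a match describes letters only. Their median GC content was 52.7%, against 53.3% (Plod3) to 75% (Loxl4) in the 5 genes and 70.3% in P4ha1 and P4ha2. The share was not taken from promoters of like GC content.

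**Figure D4:**
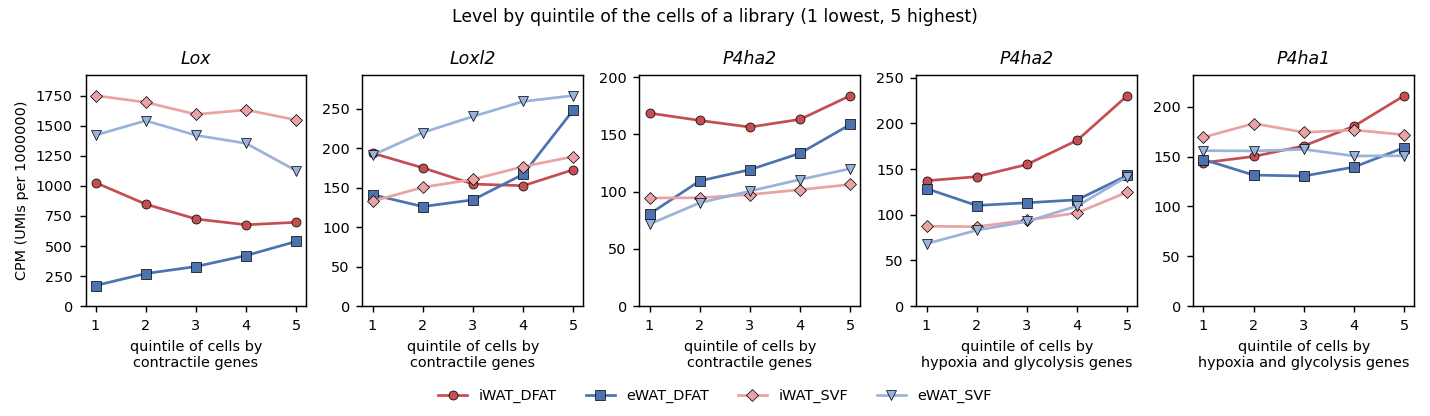
CPM (linear axes from 0) of Lox, Loxl2 and P4ha2 by quintile of contractile genes, and of P4ha2 and P4ha1 by quintile of hypoxia and glycolysis genes, 1 line per library. Lox climbed from 171 to 539 CPM across the contractile quintiles in eWAT_DFAT and ended lower than it began in the other 3 libraries.

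After each cell was thinned to 5000 UMIs, Lox was found in 89.5% of iWAT_DFAT, 64.6% of eWAT_DFAT, 96.1% of iWAT_SVF and 93.0% of eWAT_SVF cells. It alone of the enzymes reached 50% of cells in all 4 libraries, and the share of all genes that did so was not counted. At full depth the shares of Lox were 98.3%, 89.2%, 98.2% and 97.6%. In 380 cells with endothelial markers (median 14664 UMIs, against 25924 in cells with stromal progenitor markers), 154 of them in eWAT_DFAT and 150 in eWAT_SVF, the thinned share of Lox was 17.9%. In those cells of eWAT_DFAT it was 8.44% and in those of eWAT_SVF 21.3%. Plod2 was found in 20.3%, 36.8%, 34.2% and 60.2% of thinned cells in iWAT_DFAT, eWAT_DFAT, iWAT_SVF and eWAT_SVF, and Loxl4 in 2.86%, 1.56%, 1.75% and 4.11%. In the endothelial-marker cells Plod2 was found in 15.5% and Loxl4 in 1.32%, but whether such cells lack these enzymes is not known here, so neither value was taken as a background.

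Cells with markers of other types were few, and the enzymes differed among them. Each is set here beside the cells with stromal progenitor markers of the library that held most of them. The 462 cells with mesothelial markers in eWAT_SVF, of 506 in all, had 469 CPM of Lox and 32.1 CPM of P4ha2, against 1389 and 102 CPM. The 25 cells with pericyte markers in eWAT_DFAT, of 36, had 481 CPM of Loxl2, against 167 CPM. The 110 cells with adipocyte markers in eWAT_DFAT, of 136, had 68.9 CPM of Lox and 114 CPM of Plod2, against 374 and 104 CPM. In 138 cells with glial markers in iWAT_SVF, of 156, Plod1 was at 112 CPM, against 36.3 CPM. A cell could carry the markers of more than 1 type.

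Other genes of collagen maturation, from lists chosen for their role, are given with the number tested at 5 CPM. Of 13 folding and hydroxylation partners, P4ha3, a further catalytic subunit of prolyl 4-hydroxylase, was past 2-fold in all 4 comparisons, at 12.9, 5.04, 38.8 and 11.3 CPM in iWAT_DFAT, eWAT_DFAT, iWAT_SVF and eWAT_SVF. The 1 other partner past 2-fold in any comparison was Tmem38b, an endoplasmic reticulum cation channel, lower in iWAT_SVF than in eWAT_SVF at 16.6 against 38.7 CPM. These counts stand beside the shares of all genes given above, 2.74% to 8.9% per comparison and direction. P4hb was at 404 to 528 CPM. The collagen chaperone Serpinh1 was lower in DFAT than in SVF cells, at 1130 against 1453 CPM in iWAT and 1079 against 1549 CPM in eWAT, both under 2-fold. Of 10 export and processing genes, 1 was at least 2-fold higher and 3 were lower in iWAT_DFAT than in eWAT_DFAT, and 2 were higher and 0 lower in eWAT_DFAT than in eWAT_SVF. It was 1 and 1 between iWAT_SVF and eWAT_SVF, and 2 and 1 between iWAT_DFAT and iWAT_SVF, beside the shares of all genes given above. Bmp1, the procollagen C-proteinase that also cleaves the Lox propeptide, was at 174, 77.3, 80.9 and 108 CPM. The 4 libraries stood in the same order for Bmp1 as for Loxl1, which was noticed after the values were seen. Tll1, a related proteinase, was at 4.44, 48.2, 36.5 and 16.2 CPM. The C-proteinase enhancer Pcolce2 was higher in eWAT in both cell kinds, at 12.0 and 54.5 CPM in DFAT and 16.4 and 83.0 CPM in SVF cells. The galactosyltransferase Colgalt1 was level, at 114 to 123 CPM.

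Of 8 substrates, 5 were at least 2-fold higher and 1 was lower in iWAT_DFAT than in eWAT_DFAT (7.43% and 3.59% of all genes), and 2 were higher and 0 lower in iWAT_SVF than in eWAT_SVF (2.74% and 3.4%). In iWAT_DFAT 1 was higher and 2 were lower than in iWAT_SVF (8.9% and 4.83%). In eWAT_DFAT 7 were lower than in eWAT_SVF and 1 was higher (5.94% and 5.72%), the latter Col5a3, at 36.0 against 9.65 CPM. Elastin (Eln), a lysyl oxidase substrate, was at 2.12 CPM in iWAT_DFAT, 0.453 CPM in eWAT_DFAT, 42.7 CPM in iWAT_SVF and 13.5 CPM in eWAT_SVF. Col11a1 was at 1.80, 5.92, 148 and 37.1 CPM. Of 8 lysyl oxidase cofactors and partners, 4 were at least 2-fold lower in iWAT_DFAT than in iWAT_SVF (Fbln5, Postn, Fmod and Fn1), and 3 of them were so in eWAT, where Fn1 had a log2 ratio of -0.46 (4.83% and 5.94% of all genes). Between iWAT_DFAT and eWAT_DFAT 1 was higher (Fmod) and 0 were lower, and between the SVF libraries 0 were past 2-fold. Postn, a matricellular protein that aids Lox activation, was at 45.7, 52.5, 405 and 244 CPM. Of the copper carriers, Atp7a and Atox1 were higher in DFAT than in SVF cells of both depots, under 2-fold. Atp7a, which loads copper in the secretory pathway, was at 19.0 and 19.1 CPM in iWAT_DFAT and eWAT_DFAT and at 11.7 and 14.6 CPM in iWAT_SVF and eWAT_SVF. The copper chaperone Atox1 was at 447, 364, 307 and 236 CPM. The copper importer Slc31a1 was at 47.4, 36.5, 40.1 and 35.7 CPM, and its DFAT to SVF log2 ratio in eWAT, 0.03, had an interval that included 0.

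**Figure D5:**
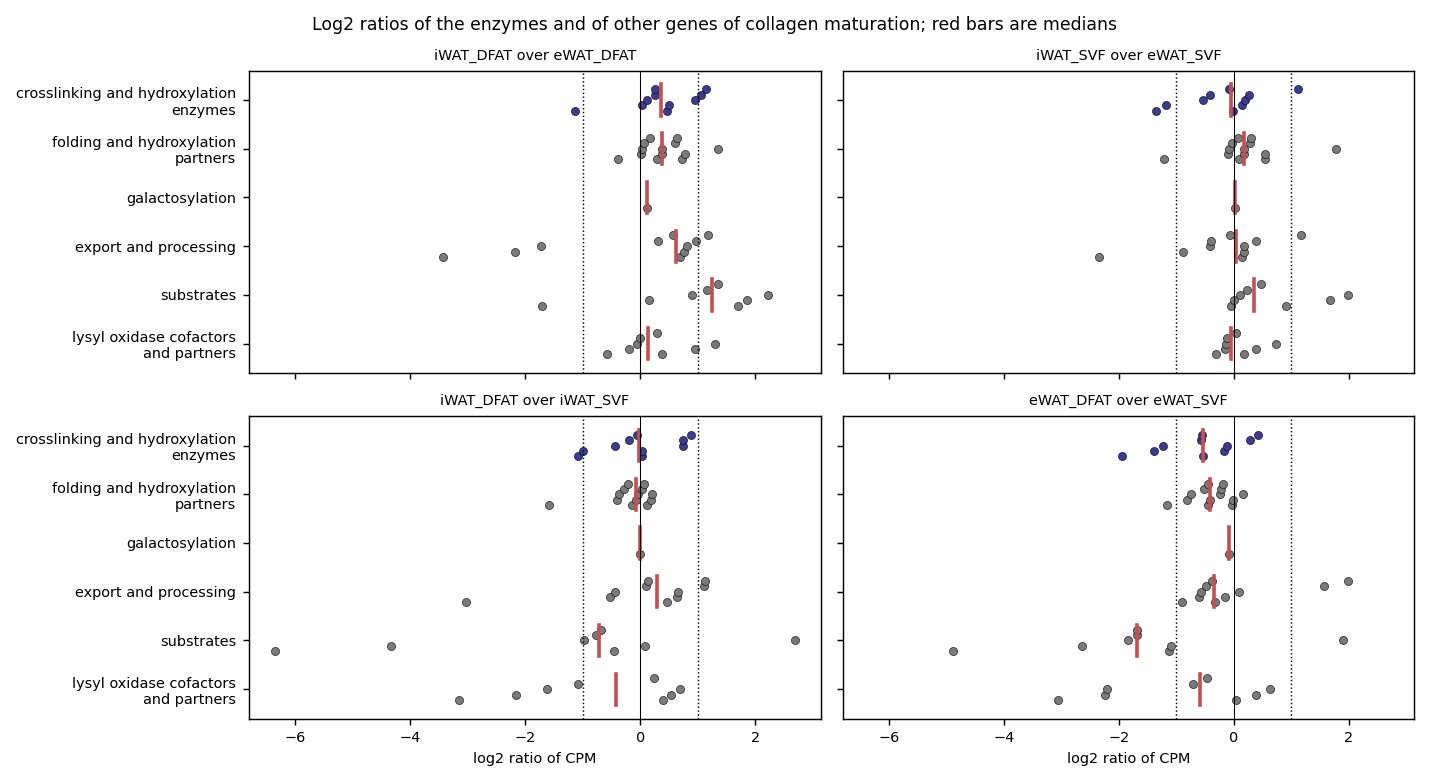
Log2 ratio of CPM of each enzyme gene (blue) and of each tested gene of 5 lists of collagen maturation (grey) in the 4 comparisons, with red bars at the list medians and dotted lines at 2-fold. The substrates had the lowest median in eWAT_DFAT over eWAT_SVF, -1.69, and the enzymes had -0.54.

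Among 6127 genes at a mean of 20 CPM or more, the genes with the smallest Euclidean distance between centred log2 CPM over the 4 libraries were named for the 3 widest enzymes. For Plod2 these were Slc9a3r2 (distance 0.04, with 9.49, 20.04, 18.9 and 48.5 CPM), Rspo3 (0.30) and Smtn (0.33). For Lox they were Arap1 (0.12), Pck2 (0.25) and Lamb2 (0.25). For Loxl4 they were Sp100 (0.25), Gstm1 (0.27) and Mxd4 (0.32). With only 4 values per gene and 6127 genes searched, near neighbours can arise for many genes. The usual distance to the nearest gene was not counted, so these genes are not read as regulated together.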

How the data were processed

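Cells of 4 libraries were sequenced with 10x 3′ v3.1 chemistry. The authors counted reads, introns included, with Cell Ranger 7.0.0 on mm10 per the labels; the deposited file headers name 7.1.0 for 3 libraries and 4 for iWAT_SVF. The deposited matrices hold raw UMI counts of all barcodes, before removal of free RNA. Cells were barcodes with 5000 to 75000 UMIs, 200 to 7500 genes and under 10% mitochondrial UMIs. No doublet caller was run; an alternative left out the deepest cells, 0.8% per 1000 cells. UMIs were summed per library (183664704 to 199357348 in cells) and divided by the library's total (CPM). Ratios carry exact conditional binomial 95% intervals, levels exact Poisson and shares Clopper-Pearson intervals, which cover counting error only. With 1 library per condition, each enzyme was counted past 2-fold, beside all genes. Cells had a type's markers with 3 or more of its genes at 2 or more UMIs. The ratio calculation was tested on simulated data. All 10 enzymes and the pathway, ranking and marker lists are named by a fixed rule, and like patterns are the 3 nearest genes; members and lists were chosen with earlier results of these data known. Python 3.11.15, numpy 2.4.6 and scipy 1.17.1 were used.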

Additional observations from a re-analysis of the deposited data

Results flagged for a closer look

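The depot difference of 4 enzymes had opposite signs in DFAT and SVF cells, with neither counting interval including 0. How many of all genes did so was not counted, so the number is not read as a trait of the enzymes. The iWAT to eWAT log2 ratio of Loxl1 was 1.05 in DFAT and -0.41 in SVF cells, and that of Loxl4 was 0.95 and -1.17. For Loxl2 the values were 0.030 and -0.54, and for Plod1 they were 0.49 and -0.093. With 1 library per condition the difference between the 2 depot ratios was not tested against the spread between cultures. The DFAT ratio of Loxl2 was -0.17 when centred on genes of like span and -0.0028 when scaled without the 50 most counted genes, so its depot ratios then had the same sign, while those of Loxl1, Loxl4 and Plod1 stayed opposite. For Plod1 the SVF ratio was small, at only -0.026 with the mean of CPM per cell.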

How the results depend on the processing

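No ratio of the 40 changed direction under any alternative except those of at most 0.06 on the log2 scale, among them Loxl2 in both comparisons of iWAT_DFAT. The number of enzymes past 2-fold between iWAT_DFAT and iWAT_SVF was 1, with Plod2 at the limit. It was 2 with no upper limit on genes, a mitochondrial limit of 20%, without the deepest cells, without cells with other types' markers, without shared barcodes, with median of ratios scaling, scaling without the 50 most counted genes, 5% or 10% free RNA subtracted, or centring on genes of like span. It was 0 without cells with a Top2a or Mki67 UMI and with mean CPM per cell, and 5 at 1.5-fold, where 17.2% of all genes were higher and 9.78% lower in iWAT_DFAT. Enzymes found in 50% of cells numbered 1 in thinned cells and 2 without cells with other types' markers or without Top2a or Mki67 cells. They numbered 8 at full depth and 0 with 2 UMIs required, and the share of all genes was not counted. A minimum of 500 UMIs gave no value, since such cells cannot be thinned. By mean rank of genes, 4 enzymes were higher in the top contractile quintile (11.8% of all genes) and 3 in the top hypoxia and glycolysis quintile (13.3%), and 2 were in the latter without cells with other types' markers (20.7%). For the collagen quintiles the number was 10 by mean rank of genes (30.01% of all genes) and in thinned cells, where no share of all genes was counted. It was also 10 without Top2a or Mki67 cells (25.8%), an alternative chosen after seeing the data. Median of ratios scaling moved the median log2 ratio of all genes in eWAT_DFAT against eWAT_SVF from 0.07 to -0.10. No paired analysis was possible because each condition has 1 library and the labels carry no replicate numbers. Depth limits Loxl4 most.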
